A study of Homo sapiens with 9 samples.

Results

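Transcripts of 39 genes of glycolysis and of the response to low oxygen were followed in AC16 cells treated with CDDO-Me. The genes were taken from a list of symbols matched to the Ensembl identifiers of the count table, which holds 58299 genes. The table had a row for each of the 39, and 38 held enough reads to be tested. AC16 is a proliferating human line derived by fusing adult ventricular cells with SV40-transformed fibroblasts, and CDDO-Me (bardoxolone methyl) is a triterpenoid that activates the transcription factor NRF2 by binding its adaptor KEAP1. The 3 groups of 3 libraries were cells given 100 nM CDDO-Me over 24 h, cells given 100 nM CDDO-Me over 72 h and cells given 0.1% DMSO over 72 h. All cells were of this 1 line and grew in medium with 25 mM glucose and 1 mM pyruvate under 5% CO2, and no group was labelled as kept at low oxygen. The vehicle libraries analysed were of 72 h, so at 24 h treatment and time in culture cannot be told apart.

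Glycolysis splits glucose into pyruvate in the cytosol and yields ATP without oxygen, and lactate dehydrogenase then turns pyruvate into lactate so that NAD+ is restored. When oxygen is short, prolyl hydroxylases no longer mark the HIF alpha subunits for degradation, and HIF binds the hypoxia response element, whose core is read as ACGTG or GCGTG, in genes of glucose uptake, glycolysis, vessel growth and mitophagy. Because this control acts on HIF protein, the transcripts of the HIF genes are not a reading of HIF activity. Adult heart muscle burns mainly fatty acids, and glycolysis is used more by the fetal or stressed heart and by dividing cells in culture.

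Total counts were 16898977 to 27910031 in the CDDO-Me 24 h libraries, 18801683 to 20704953 in the CDDO-Me 72 h libraries and 19382833 to 20570568 in the DMSO libraries. NQO1, a standard NRF2 target, averaged 1879.1 ± 255.9 CPM at 24 h and 3348.5 ± 40.5 CPM at 72 h, against 449.2 ± 40.3 CPM in DMSO (SD, n = 3 each; CPM are read counts scaled to a common library size of 1e6). HMOX1, the heme oxygenase 1 gene and another NRF2 target, averaged 312.1 ± 288 CPM at 24 h and 816.4 ± 66.7 CPM at 72 h, against 23.8 ± 1.84 CPM in DMSO. In edgeR's test its log2 fold change of 3.71 ± 0.68 (SE) at 24 h missed an adjusted p of 0.05 (0.0557). Of 5 NRF2 check genes, 1 passed at 24 h and 4 at 72 h (2.15% and 6.02% of all genes). A member that did not pass at 24 h is therefore not shown to be unchanged. Of 10 heart muscle markers, 5 (MYH6, MYH7, MYL2, RYR2 and NKX2-5) had no read in any library, and the 10 together summed to 0.318 to 1.65 CPM. Replicate 3 of the CDDO-Me 24 h group stood apart from its fellows, with a biological coefficient of variation of 20.9% and 19.9% against replicates 1 and 2, while these differed by 6.39%. That library was the deepest, with 27910031 counts. Its 5 NRF2 check genes summed to 6560.3 CPM against 3312.6 and 3548.2 CPM in replicates 1 and 2 (6874.9 to 6964.3 CPM at 72 h), its nuclear-retained and histone RNAs to 165.2 CPM against 360.4 and 370.1 CPM, and its fibroblast markers to 10568.1 CPM against 17690.7 and 16392.2 CPM. The make-up of the NRF2 sum differed from 72 h. NQO1 was at most 2169.3 CPM at 24 h, against at least 3305.8 CPM at 72 h. TXNRD1, another of the 5, reached 3161.7 CPM at 24 h, against at most 2341.7 CPM at 72 h. Among DMSO libraries replicate 1 differed from replicates 2 and 3 by 12.1% and 13.8%, and these from each other by 7.77%, and the CDDO-Me 72 h libraries lay within 2.72% to 3.31% of each other.

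Levels per exon length, in TPM (counts per exon length, scaled to the same sum in each library), differed widely among the members. In CDDO-Me 24 h, CDDO-Me 72 h and DMSO libraries in turn, GAPDH averaged 4743.5 ± 201.8, 5112.8 ± 135.7 and 4437.5 ± 202.3 TPM, ENO1 3022.7 ± 176.0, 2875.6 ± 29.9 and 2918.3 ± 126.6 TPM, and TPI1 2003.5 ± 53.1, 1984.8 ± 15.0 and 1842.6 ± 147.7 TPM (SD, n = 3). PKM followed at 1856.2 ± 34.3, 1864.7 ± 19.1 and 1715.8 ± 96.2 TPM, so the most abundant members were enzymes of the central and late steps. At the other end, CA9, carbonic anhydrase 9, a membrane enzyme that is nearly silent in many cells until oxygen falls, averaged 5.95 ± 3.78 TPM at 24 h and 2.42 ± 1.04 TPM at 72 h, against 4.12 ± 1.79 TPM in DMSO. EGLN3, a HIF prolyl hydroxylase that is itself a HIF target in many cells, had 0 or 1 read in each library, which is under the limit of 3 counts, and was not tested. The 13 glycolytic enzymes with LDHA and LDHB held 1.55 ± 0.0157% of all TPM at 24 h and 1.54 ± 0.0169% at 72 h, against 1.48 ± 0.0857% in DMSO. The level of ALDOA, the main aldolase of most tissues, stood at only 23.5 ± 3.61, 19.4 ± 1.07 and 20.7 ± 1.59 TPM at 24 h, at 72 h and in DMSO. In the deposited annotation 53.5% of ALDOA exon bases are also exons of other genes, mostly of ENSG00000285043 on the same strand, so its level cannot be set against those of the other enzymes. Exons were also shared over 38.5% of CA9 and 35.2% of ANKRD37, and over at most 14.2% of each other member. GAPDH, ENO1, PKM, PGK1, TPI1, PGAM1, LDHA and LDHB have processed copies in the genome that can take reads.

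**Figure D1:**
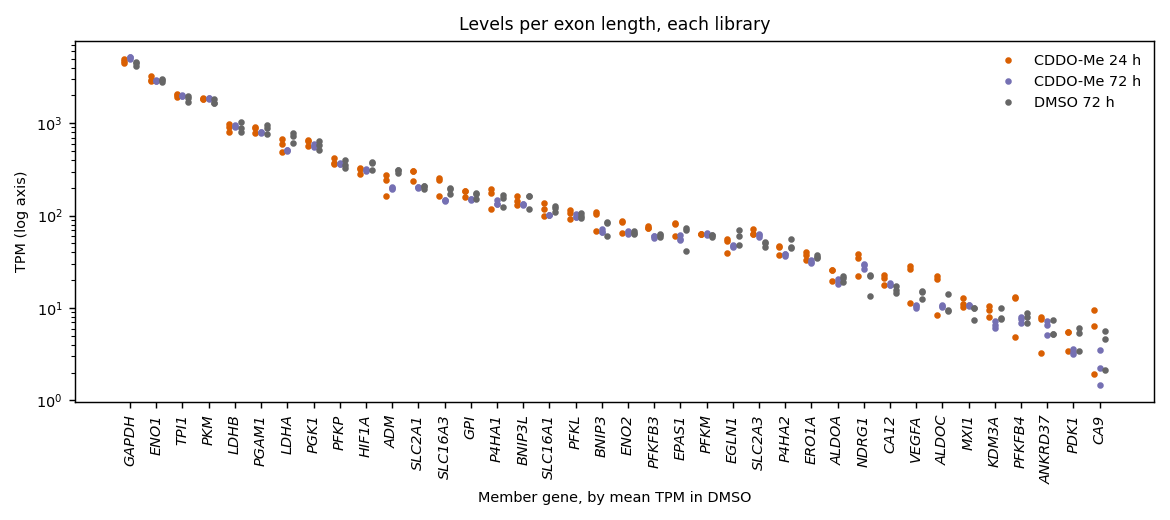
TPM (log axis) of the 38 tested members in each of 9 libraries, ordered by their mean in DMSO; orange points are CDDO-Me 24 h, purple CDDO-Me 72 h and grey DMSO 72 h. GAPDH is highest, with means of 4743.5, 5112.8 and 4437.5 TPM, and CA9 lowest in DMSO, with means of 5.95, 2.42 and 4.12 TPM.

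At 72 h of CDDO-Me SLC2A3 rose and LDHA and ADM fell against DMSO of the same time, and at 24 h SLC2A1 and SLC2A3, both glucose transporters, were higher than in DMSO of 72 h. No other member passed an adjusted p of 0.05 in edgeR's test with all 9 libraries, to which passing refers unless another fit is named. At 24 h against DMSO, 2 of 38 members were higher (5.26%), where 0.969% of all 14965 tested genes were called higher, and none was lower, where 1.18% of all genes were called lower (2.15% in either direction). At 72 h against DMSO, 1 of 38 was higher (2.63%, against 2.89% of all genes) and 2 were lower (5.26%, against 3.13% of all genes), shares near those of all genes, of which 6.02% were called in either direction. Between 72 h and 24 h of CDDO-Me 1 was lower (2.63%, against 0.568% of all genes) and none higher (0.448% of all genes, 1.02% in either direction). Tests were edgeR's quasi-likelihood test over all genes with Benjamini-Hochberg adjustment, and the median log2 fold change of the members was 0.11, −0.01 and −0.12 in these comparisons, beside 0.007, −0.001 and −0.006 over all genes. At an unadjusted p under 0.05 in edgeR, 7 of 38 members were higher and 3 lower at 24 h, where 6.59% and 6.22% of all genes were. At 72 h against DMSO 7 were higher and 6 lower, where 9.1% and 9.47% of all genes were. Against the 0 called lower by edgeR at 24 h, DESeq2 called 1 (0.984% of its 29682 genes), limma-voom 0 (1.12% of all genes) and limma-voom with sample weights 2 (5.25%). Called higher at 24 h were 4 by DESeq2 (0.788%), 2 by limma-voom (0.895%) and 11 with sample weights (5.71%). DESeq2 was run without the filter on low counts, so its shares rest on more genes and are not a like background. Higher at 72 h than at 24 h at an unadjusted p under 0.05 was 1 member, where 5.75% of all genes were, against 0 called by edgeR, DESeq2 or limma-voom and 2 with sample weights (8.84% of all genes). Lower at that unadjusted p were 7 members, where 7.4% of all genes were. Called lower were 1 by edgeR (0.568%), 3 by DESeq2 (0.734%), 1 by limma-voom (0.374%) and 17 with sample weights (10.8%). The 13 members called with sample weights at 24 h against DMSO were those edgeR called without CDDO-Me 24 h replicate 3. The 19 called with sample weights between the times included all 14 of that run. The calls with sample weights are thus not support separate from that run. The 2 comparisons with vehicle share the DMSO libraries, and in these bulk samples fewer cells of a kind and less RNA per cell cannot be told apart.

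**Figure D2:**
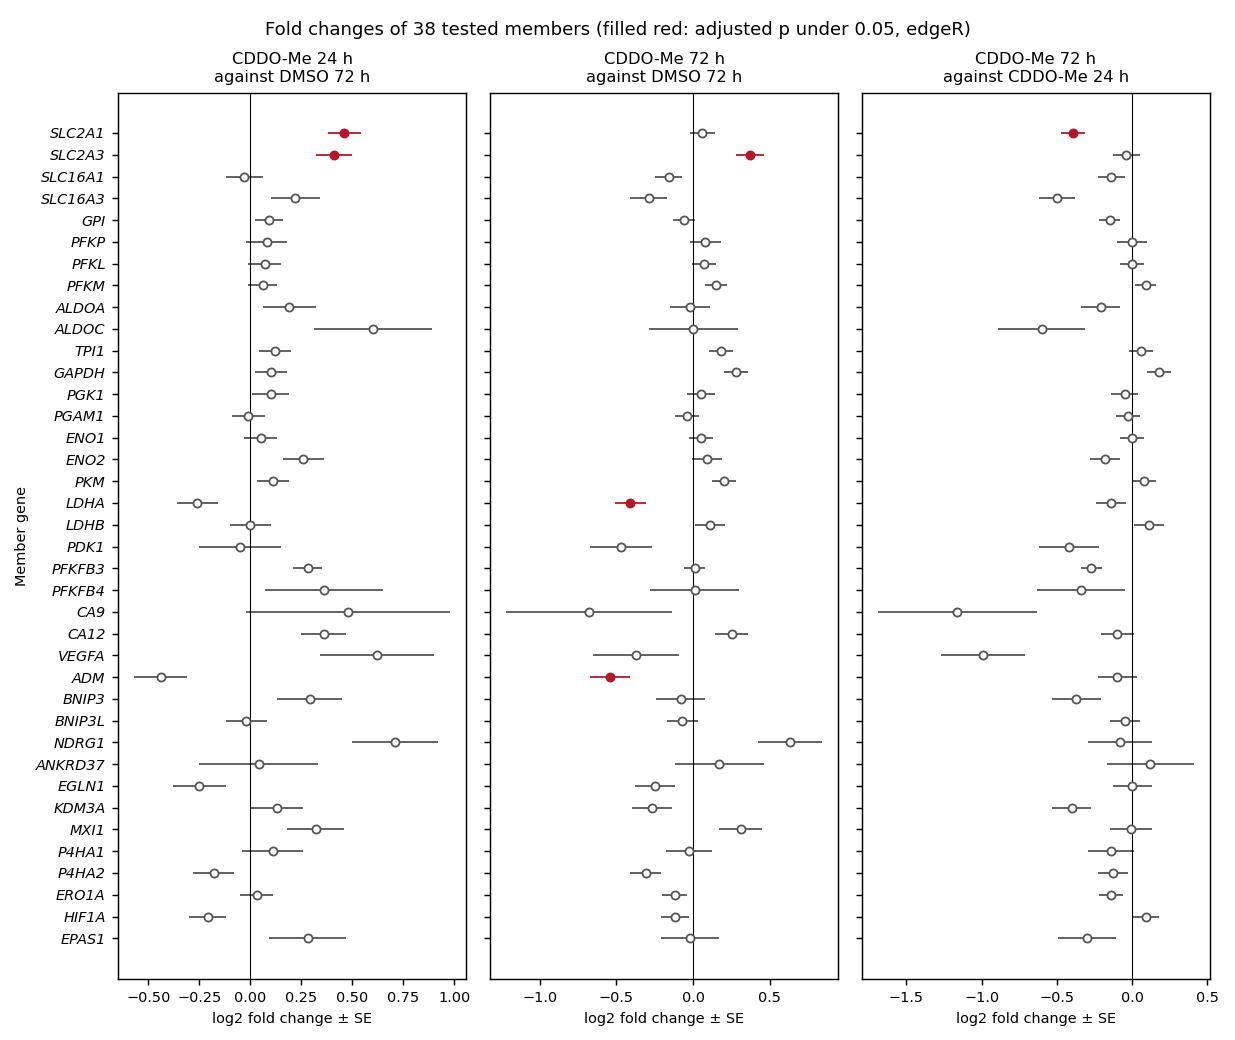
Log2 fold change ± SE of the 38 tested members in the 3 comparisons; filled red points passed an adjusted p of 0.05. SLC2A1 and SLC2A3 passed at 24 h (0.46 and 0.41), SLC2A3, LDHA and ADM at 72 h (0.37, −0.41 and −0.54), and SLC2A1 between 72 h and 24 h (−0.39).

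The promoters of SLC2A1, ADM and LDHA, members that passed, are shown with their matches to the hypoxia response element core. A match is not a reading of HIF control, since binding was not measured and sequence outside the windows was not searched. Each window runs from 250 bases before to 50 bases after an annotated start, in the gene's own direction (RefSeq, GRCh38.p14), and capitals mark the hypoxia response element cores ACGTG and GCGTG on either strand, where CACGT and CACGC are their reverse complements.
SLC2A1, chr1:42958819-42959118, minus strand: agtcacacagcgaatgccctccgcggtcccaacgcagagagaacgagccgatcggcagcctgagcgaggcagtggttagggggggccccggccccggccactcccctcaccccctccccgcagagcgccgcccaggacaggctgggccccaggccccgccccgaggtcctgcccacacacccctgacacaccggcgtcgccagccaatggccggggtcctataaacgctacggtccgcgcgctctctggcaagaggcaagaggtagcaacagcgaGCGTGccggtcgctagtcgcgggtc
ADM, chr11:10304823-10305122, plus strand: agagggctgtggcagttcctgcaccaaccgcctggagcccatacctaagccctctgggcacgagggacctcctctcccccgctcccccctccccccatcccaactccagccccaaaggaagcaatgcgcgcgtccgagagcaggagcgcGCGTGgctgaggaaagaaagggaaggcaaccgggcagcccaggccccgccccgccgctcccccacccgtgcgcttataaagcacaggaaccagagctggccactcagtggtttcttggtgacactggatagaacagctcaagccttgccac
LDHA upstream start, chr11:18394313-18394612, plus strand: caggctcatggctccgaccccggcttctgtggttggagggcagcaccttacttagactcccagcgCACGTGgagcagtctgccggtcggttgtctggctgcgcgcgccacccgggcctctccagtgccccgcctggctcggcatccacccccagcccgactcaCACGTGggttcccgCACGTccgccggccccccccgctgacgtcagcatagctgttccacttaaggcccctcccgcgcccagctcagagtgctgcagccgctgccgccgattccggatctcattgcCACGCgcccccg
LDHA downstream start, chr11:18396101-18396400, plus strand: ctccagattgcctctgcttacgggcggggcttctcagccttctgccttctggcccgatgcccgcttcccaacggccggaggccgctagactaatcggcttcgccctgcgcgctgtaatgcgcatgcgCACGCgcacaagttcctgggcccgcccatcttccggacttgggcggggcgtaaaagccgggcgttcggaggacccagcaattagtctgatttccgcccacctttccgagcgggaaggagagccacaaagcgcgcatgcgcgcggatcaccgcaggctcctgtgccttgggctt
The upstream LDHA window held 5 matches to ACGTG and 1 to GCGTG, and because CACGTG reads the same on both strands, 4 of the 5 lie in 2 overlapping pairs. SLC2A1, ADM and the downstream LDHA window each held 1 match, to GCGTG. None of these 4 windows matched TGACNNNGC, the antioxidant response element core to which NRF2 binds, on either strand. RefSeq windows were found for 34 of the 39 members (57 windows, since some genes have several starts), and 41 of the 57 (71.9%) held ACGTG or GCGTG, against 48.4% of all 35116 windows. TGACNNNGC was in 5 of the 57 (8.77%), in windows of ALDOC, GAPDH, HIF1A, PFKL and PKM, against 13.3% of all windows. SLC2A3, the other member that passed, is not among these 34.

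SLC2A1 encodes GLUT1, the transporter that carries basal glucose uptake in most cells (ENSG00000117394, chr1:42925375-42959176). It was at 319.9, 318.3 and 264.2 CPM in the CDDO-Me 24 h libraries and 225.9, 230.3 and 230.1 CPM in the CDDO-Me 72 h libraries, against 214.1, 221.7 and 222.3 CPM in DMSO. Each 24 h library lay above every library of both other groups. At 24 h it was 1.37-fold higher than in DMSO of 72 h (log2 fold change 0.46 ± 0.08, SE; adjusted p 0.0074). At 72 h the difference from DMSO was 0.06 ± 0.08 (adjusted p 0.756), and the level was lower than at 24 h by −0.39 ± 0.08 (adjusted p 0.0306). The call at 24 h held without any 1 library (adjusted p 1.48e-05 to 0.042) and missed the threshold when the 72 h libraries were left out of the fit (0.066). The call between 72 h and 24 h ended when DMSO replicate 2, replicate 1 or replicate 2 of the 24 h group, or any 1 library of 72 h was left out (adjusted p up to 0.196), and with only the groups compared (0.0573).

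SLC2A3 encodes GLUT3, a transporter of high glucose affinity best known from neurons (ENSG00000059804, chr12:7919230-7936275). It was at 87.6, 85.8 and 103.4 CPM at 24 h and 85.4, 93.3 and 90.4 CPM at 72 h, against 65.5, 70.0 and 73.0 CPM in DMSO. Unlike SLC2A1 it was high at both times, and its highest library was CDDO-Me 24 h replicate 3, the library in which SLC2A1 was lowest of its group. It rose 1.33-fold at 24 h (0.41 ± 0.09, adjusted p 0.0225) and 1.29-fold at 72 h (0.37 ± 0.09, adjusted p 0.0217). The call at 24 h was lost when DMSO replicate 1, DMSO replicate 2 or the third 72 h library was left out (adjusted p up to 0.0993) and without the 72 h group (0.129). That at 72 h was lost when DMSO replicate 1, DMSO replicate 2 or any 1 library of 72 h was left out (up to 0.121). Per length, SLC2A1 made up 82.6%, 82.9% and 76.9% of the summed TPM of both genes at 24 h and 77.5%, 76.3% and 76.8% at 72 h, against 81.0%, 80.5% and 79.9% in DMSO.

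The lactate carriers did not pass in edgeR's test. SLC16A3 encodes MCT4, which exports lactate from glycolytic cells, and stood at 516.7, 480.4 and 345.8 CPM at 24 h and 320.8, 307.5 and 319.0 CPM at 72 h, against 400.4, 408.2 and 346.7 CPM in DMSO. Its log2 fold changes were 0.22 ± 0.12 at 24 h and −0.29 ± 0.12 at 72 h (adjusted p 0.507 and 0.217), and −0.50 ± 0.12 between 72 h and 24 h (0.0785). The last of these passed by DESeq2 (adjusted p 0.00442) and with no filter on low counts (8.79e-06), and the value at 72 h against DMSO passed with no filter (0.0377) and with only the groups compared (0.0106). SLC16A1, the gene of MCT1, which moves lactate and pyruvate in either direction, averaged 141.3 ± 17.8 CPM at 24 h and 128.6 ± 0.335 CPM at 72 h, against 143.7 ± 7.61 CPM in DMSO.

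**Figure D3:**
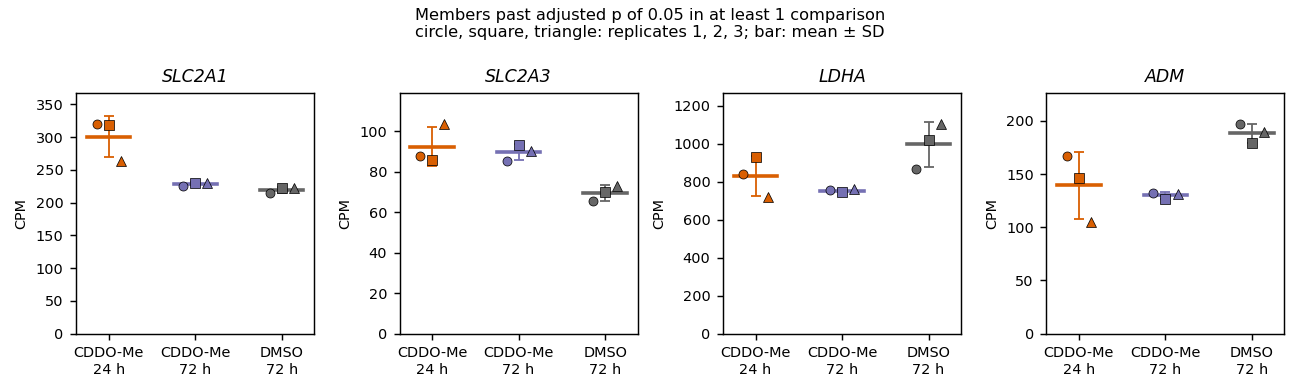
CPM per library of SLC2A1, SLC2A3, LDHA and ADM by group (linear axes from 0; bar and whiskers, mean ± SD; circle, square and triangle, replicates 1, 2 and 3). SLC2A1 is highest in the 24 h libraries (264.2 to 319.9 CPM), SLC2A3 is above DMSO at both times, and LDHA and ADM are below DMSO in every 72 h library.

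No glycolytic enzyme from GPI to PKM passed in edgeR's test in any of the 3 comparisons. Their 13 log2 fold changes ran from −0.01 (PGAM1) to 0.60 (ALDOC) at 24 h, with a median of 0.10, and from −0.06 (GPI) to 0.28 (GAPDH) at 72 h, with a median of 0.07. At an unadjusted p under 0.05, edgeR had 1 of the 13 higher at 24 h (6.59% of all genes) and 3 higher at 72 h (9.1%). None was lower at these times (6.22% and 9.47% of all genes). Between 72 h and 24 h 1 was higher (5.75%) and none lower (7.4%). DESeq2 and limma-voom each called 0 at 24 h, where 0.788% and 0.895% of their genes were higher. At 72 h each called 1 higher (GAPDH), where 1.83% and 2.67% of their genes were. Between the times each called 0, where 0.573% and 0.394% were higher and 0.734% and 0.374% lower. With sample weights limma-voom called 2 and 3 higher against DMSO at 24 h and 72 h (5.71% and 8.39% of all genes). Between the times it called 1 higher and 3 lower (8.84% and 10.8% of all genes). GAPDH, which oxidizes glyceraldehyde 3-phosphate and is often used as a loading reference, was at 3194.7, 2979.5 and 3477.1 CPM at 24 h and 3695.2, 3700.1 and 3550.1 CPM at 72 h, against 2896.3, 3015.0 and 3106.3 CPM in DMSO. Every 72 h library lay above every other library. Its log2 fold change was 0.10 ± 0.08 at 24 h (adjusted p 0.687) and 0.28 ± 0.08 at 72 h (0.0588), and without CDDO-Me 24 h replicate 3 the value at 72 h passed (0.28, adjusted p 0.00212).

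At the first steps, GPI, phosphoglucose isomerase, averaged 426.3 ± 19.6 CPM at 24 h and 385.1 ± 6.94 CPM at 72 h, against 401.7 ± 25.9 CPM in DMSO. Phosphofructokinase 1 commits the sugar to glycolysis, and its platelet, liver and muscle forms PFKP, PFKL and PFKM had log2 fold changes of 0.06 to 0.15 against DMSO at both times (adjusted p 0.274 to 0.797). PFKP supplied 67.4% to 73.0% of the summed TPM of the trio at 24 h and 68.6% to 69.4% at 72 h, against 67.7% to 71.8% in DMSO. The brain aldolase gene ALDOC was at 14.6, 13.3 and 5.88 CPM at 24 h and 7.46, 7.22 and 7.31 CPM at 72 h, against 6.36, 6.20 and 9.38 CPM in DMSO, so that the high libraries were replicates 1 and 2 of the 24 h group. TPI1, triosephosphate isomerase, averaged 1228.9 ± 23.2 CPM at 24 h and 1282.9 ± 13.8 CPM at 72 h, against 1130.3 ± 79.4 CPM in DMSO.

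Among the later enzymes, PGK1, phosphoglycerate kinase, averaged 778.4 ± 37.6 CPM at 24 h and 751.2 ± 26.7 CPM at 72 h, against 724.9 ± 77.8 CPM in DMSO. PGAM1, phosphoglycerate mutase, was at 502.1 ± 23.1 and 491.7 ± 5.04 CPM at 24 h and 72 h, against 504.8 ± 48.1 CPM in DMSO. ENO1, the widely expressed enolase, was at 3629.9 ± 344.1 and 3631.9 ± 32.6 CPM, against 3498.7 ± 110.2 CPM in DMSO. ENO2, the enolase of neurons, reached 85.3, 80.8 and 64.9 CPM at 24 h and 65.1, 70.2 and 68.8 CPM at 72 h, against 64.6, 65.7 and 61.8 CPM in DMSO, and made up the smaller part of enolase TPM in every library (ENO1 held 97.1% to 98.0%). PKM, pyruvate kinase, was at 3615.9 ± 136.9 and 3826.2 ± 51.1 CPM, against 3342.4 ± 175.7 CPM in DMSO, with log2 fold changes of 0.11 ± 0.08 and 0.20 ± 0.08 (adjusted p 0.606 and 0.178). The table counts PKM as 1 gene, so its M1 and M2 splice forms were not separated.

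LDHA encodes the M subunit of lactate dehydrogenase, the form that favours lactate formation and a classical HIF target (ENSG00000134333, chr11:18394388-18408425). It was at 842.1, 929.2 and 719.0 CPM at 24 h and 754.4, 743.2 and 759.6 CPM at 72 h, against 868.2, 1019.6 and 1102.2 CPM in DMSO. All 72 h libraries lay below all DMSO libraries, and the 24 h libraries overlapped both groups. LDHA fell at 72 h to 0.755 of the DMSO level (−0.41 ± 0.10, adjusted p 0.03), and at 24 h its difference was −0.26 ± 0.10 (0.267). The call at 72 h ended without DMSO replicates 2 or 3 or any 1 of the 72 h libraries (adjusted p up to 0.133), while without CDDO-Me 24 h replicate 3, a library outside this comparison that enters its estimate of spread, the adjusted p was 0.00095. LDHB, the H subunit typical of heart, did not pass, and its levels were 545.4, 606.0 and 699.1 CPM at 24 h and 663.2, 683.1 and 656.7 CPM at 72 h, against 554.7, 595.8 and 701.4 CPM in DMSO (log2 fold changes −0.00 ± 0.10 and 0.11 ± 0.10). LDHA held 42.6%, 42.4% and 33.1% of the summed TPM of both subunits at 24 h and 35.3%, 34.3% and 35.7% at 72 h, against 42.9%, 45.1% and 43.0% in DMSO. The 72 h shares and that of CDDO-Me 24 h replicate 3 lay below all others, and these shares were not tested.

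The switches that steer pyruvate and fructose 2,6-bisphosphate did not pass. PDK1, a mitochondrial kinase that inhibits pyruvate dehydrogenase, was at 18.5, 18.3 and 12.0 CPM at 24 h and 11.4, 12.9 and 12.1 CPM at 72 h, against 11.7, 20.6 and 18.0 CPM in DMSO. Its low DMSO library was replicate 1. PDK1 had a log2 fold change of −0.47 ± 0.20 at 72 h against DMSO (adjusted p 0.237). That comparison passed in edgeR without DMSO replicate 1 (0.0462) and with no filter on low counts. The one between 72 h and 24 h passed without CDDO-Me 24 h replicate 3 (0.0367). PFKFB3, which makes the activator fructose 2,6-bisphosphate, was at 107.6, 98.4 and 106.5 CPM at 24 h and 84.2, 87.8 and 88.0 CPM at 72 h, against 89.9, 85.9 and 82.0 CPM in DMSO. The 24 h group lay above both others, with a log2 fold change of 0.28 ± 0.07 over DMSO (adjusted p 0.0706), which passed when library totals were used without further scaling, by DESeq2, or without CDDO-Me 24 h replicate 3 (0.0304). Its relative PFKFB4 was at 18.0, 17.3 and 7.02 CPM at 24 h and 11.8, 11.1 and 10.1 CPM at 72 h, against 11.2, 12.0 and 9.48 CPM in DMSO.

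ADM encodes adrenomedullin, a peptide that widens vessels, is made by the heart and is a HIF target (ENSG00000148926, chr11:10304680-10307397). It was at 166.7, 146.6 and 104.7 CPM at 24 h and 132.2, 126.5 and 131.2 CPM at 72 h, against 196.9, 179.1 and 189.4 CPM in DMSO. Every treated library lay below every DMSO library. ADM fell at 72 h to 0.69 of the DMSO level (−0.54 ± 0.13, adjusted p 0.0265), and the 24 h value was −0.44 ± 0.13 (0.121). The call at 72 h ended without any 1 of the 6 libraries compared (adjusted p up to 0.116). At 24 h ADM passed without CDDO-Me 24 h replicate 1 (−0.59, 0.0179) or replicate 3 (−0.27, 0.0237) and by DESeq2 (0.0214).

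VEGFA, the growth factor that drives vessel formation and a well known HIF target, did not pass in edgeR's test with all libraries and was at 86.5, 89.9 and 38.8 CPM at 24 h and 36.8, 36.0 and 35.1 CPM at 72 h, against 41.6, 48.4 and 49.7 CPM in DMSO. CDDO-Me 24 h replicates 1 and 2 were above every other library, and replicate 3 lay below every DMSO library. The log2 fold changes were 0.62 ± 0.28 at 24 h, −0.37 ± 0.28 at 72 h and −0.99 ± 0.28 between 72 h and 24 h (adjusted p 0.414, 0.546 and 0.188). By DESeq2 the last passed (adjusted p 0.0449), and with only the groups compared that at 72 h against DMSO did (0.00933). Without replicate 3 of the 24 h group they were 0.92 ± 0.09, −0.37 ± 0.08 and −1.29 ± 0.09, and all 3 passed (adjusted p 1.44e-06, 0.00407 and 1.56e-08). VEGFA and ADM, members with a shared place in vessel signalling, had fold changes of opposite sign at 24 h.

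The 2 carbonic anhydrases, which buffer the acid that glycolysis releases, were low. CA9 was at 3.55, 2.38 and 0.767 CPM at 24 h and 1.41, 0.902 and 0.587 CPM at 72 h, against 0.827, 1.72 and 2.13 CPM in DMSO. These levels compare with 0.11 to 0.175 CPM for 3 counts, and its log2 fold changes of 0.48 ± 0.50 and −0.68 ± 0.54 did not pass. CA12 was at 37.3, 33.7 and 30.3 CPM at 24 h and 32.5, 30.7 and 30.9 CPM at 72 h, against 29.2, 23.8 and 25.8 CPM in DMSO, so that each treated library was above each DMSO library. Its log2 fold changes were 0.36 ± 0.11 and 0.25 ± 0.11 (adjusted p 0.116 and 0.205).

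Of the mitophagy and stress targets none passed. BNIP3, a mitophagy receptor, was at 124.5, 128.1 and 85.2 CPM at 24 h and 85.2, 83.9 and 91.9 CPM at 72 h, against 73.1, 99.7 and 102.8 CPM in DMSO. BNIP3L (NIX), its relative, averaged 142.3 ± 11.5 CPM at 24 h and 137.6 ± 1.95 CPM at 72 h, against 144.5 ± 23.6 CPM in DMSO. NDRG1, a stress and differentiation gene, was at 84.2, 76.0 and 52.3 CPM at 24 h and 61.7, 69.6 and 69.3 CPM at 72 h, against 30.5, 49.9 and 49.2 CPM in DMSO. Every treated library was above every DMSO library, with log2 fold changes of 0.71 ± 0.21 and 0.63 ± 0.21 (adjusted p 0.154 and 0.13), and both passed without CDDO-Me 24 h replicate 3 (0.89 and 0.63, adjusted p 0.0146 and 0.036) and by DESeq2. ANKRD37, a small ankyrin protein gene induced by hypoxia, was at 3.65 ± 1.42 and 3.91 ± 0.665 CPM, against 3.49 ± 0.678 CPM in DMSO.

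The alpha subunits and their sensors also did not pass. HIF1A was at 327.9, 364.0 and 394.5 CPM at 24 h and 388.0, 371.9 and 394.3 CPM at 72 h, against 373.1, 436.0 and 447.2 CPM in DMSO. The groups overlapped, and the log2 fold changes were −0.21 ± 0.09 and −0.12 ± 0.09 (adjusted p 0.324 and 0.507). EPAS1, the gene of HIF-2 alpha, was at 138.0, 130.5 and 104.8 CPM at 24 h and 96.0, 107.9 and 98.2 CPM at 72 h, against 69.2, 122.1 and 115.4 CPM in DMSO, where replicate 1 was the low library. Per length HIF1A supplied 77.1% to 84.2% of the summed TPM of both subunits at 24 h and 83.0% to 85.1% at 72 h, against 83.5% to 88.4% in DMSO. EGLN1 encodes PHD2, the main hydroxylase that marks HIF alpha, and averaged 82.1 ± 11.8 CPM at 24 h and 82.0 ± 2.19 CPM at 72 h, against 97.4 ± 17.3 CPM in DMSO. KDM3A, a histone demethylase induced by HIF, was at 28.3 ± 3.08 and 21.4 ± 1.94 CPM, against 25.9 ± 3.90 CPM in DMSO, and MXI1, a MYC antagonist, at 11.9 ± 1.23 and 11.8 ± 0.179 CPM, against 9.49 ± 1.46 CPM. Collagen prolyl hydroxylase subunits P4HA1 and P4HA2, and ERO1A, an oxidase that forms disulfide bonds in the endoplasmic reticulum, had log2 fold changes from −0.18 to 0.11 at 24 h and from −0.31 to −0.03 at 72 h. The lowest of these was P4HA2 at 72 h (adjusted p 0.0784), at 77.5, 78.3 and 74.1 CPM, against 110.2, 88.4 and 86.6 CPM in DMSO, and it passed with no filter (0.0379) and with only the groups compared (0.0302).

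In replicate 3 of the CDDO-Me 24 h group, 27 of 38 members were below both other 24 h libraries, 9 were above both and 2 lay between, while 42.5% of all genes were below and 39.2% above. The widest gaps were at CA9 (log2 ratio to the mean of replicates 1 and 2 of −1.95), PFKFB4 (−1.33), ALDOC (−1.24), VEGFA (−1.19) and ANKRD37 (−1.15), with PDK1, NDRG1, ADM, BNIP3, P4HA1 and SLC16A3 from −0.62 to −0.53. Members above both were PFKP, LDHB, ALDOA, SLC2A3, ENO1, HIF1A, GAPDH, PFKM and PKM, at ratios of 0.07 to 0.29. The part of depth, retained RNA and the NRF2 response, whose values in this library are given above, was not tested. These genes were picked after their values were seen.

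**Figure D4:**
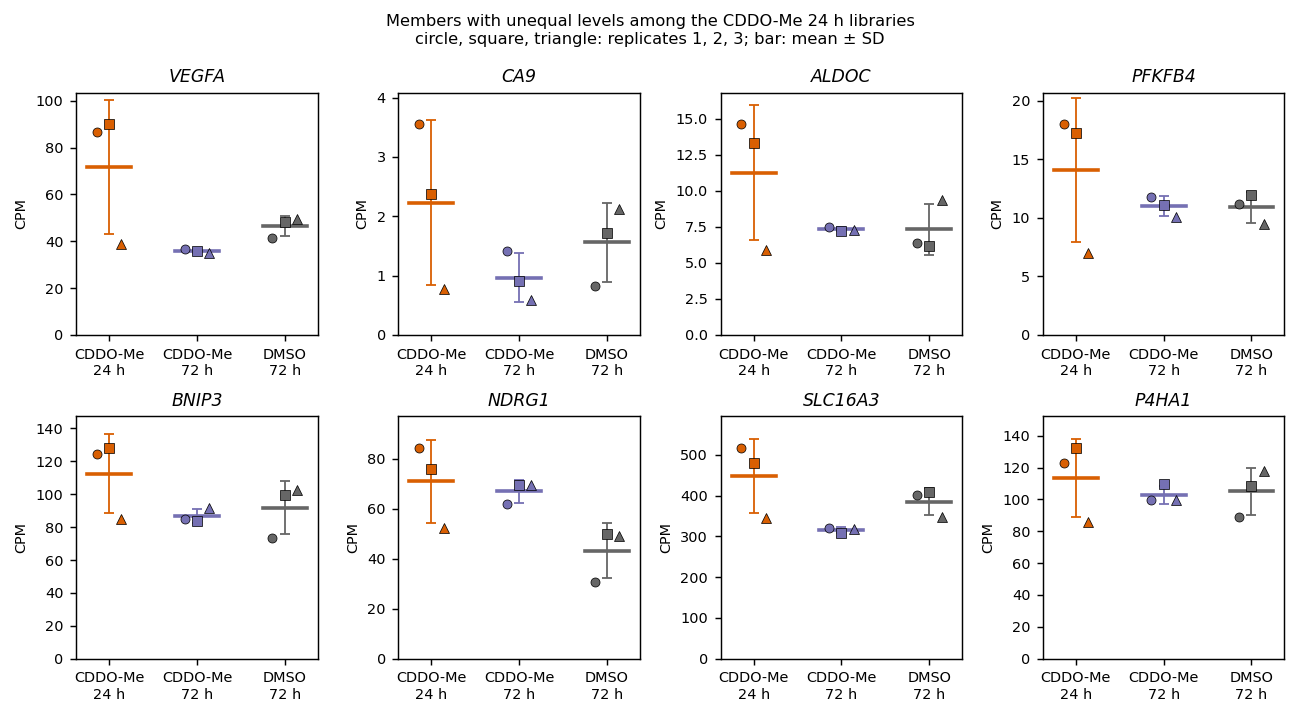
CPM per library of 8 members by group (linear axes from 0; bar and whiskers, mean ± SD; circle, square and triangle, replicates 1, 2 and 3). In the 24 h group the triangle, replicate 3, lies below the circle and square in all 8 panels, as with VEGFA at 38.8 CPM against 86.5 and 89.9 CPM.

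Without that library, 11 of 38 members were higher at 24 h than in DMSO (28.9%, against 5.71% of all genes) and 2 lower (5.26%, against 5.11% of all genes; 10.8% in either direction). The higher ones were SLC2A1, SLC2A3, SLC16A3, ALDOC, ENO2, PFKFB3, PFKFB4, CA12, VEGFA, BNIP3 and NDRG1, and the lower ones ADM and HIF1A (−0.28, adjusted p 0.0287). At 72 h against DMSO 5 were then higher (13.2%, against 6.26% of all genes), namely SLC2A3, TPI1, GAPDH, PKM and NDRG1, and 5 lower (13.2%, against 6.62% of all genes), namely SLC16A3, LDHA, VEGFA, ADM and P4HA2, with 12.9% of all genes called in either direction. Between 72 h and 24 h, 13 were lower (34.2%, against 6.84% of all genes and 12.0% in either direction), with the widest differences at CA9 (−1.59 ± 0.39), VEGFA, ALDOC (−0.92 ± 0.17) and PFKFB4 (−0.68 ± 0.13), and 1, GAPDH, was higher (0.24 ± 0.06, against 5.19% of all genes called higher). CDDO-Me 24 h replicate 3 was singled out after its values were seen, and it was below both fellows in 27 of 38 members. Leaving it out raises the 24 h level of such members, so the shares in comparisons with 24 h are not a separate test of them. With only 2 libraries left at 24 h, these values rest on replicates 1 and 2, whose coefficient of variation was 6.39%. Without DMSO replicate 1 as well, 11 members were higher (28.9%) and 4 lower (10.5%) at 24 h (12.0% and 10.8% of all genes, 22.8% in either direction). At 72 h against DMSO 6 were then higher (15.8%) and 14 lower (36.8%), where 8.72% and 9.20% of all genes were (17.9% in either direction). Between 72 h and 24 h 2 were then higher (5.26%) and 20 lower (52.6%), where 10.5% and 12.3% of all genes were (22.8% in either direction). DMSO replicate 1 was also picked from these data, and the median log2 difference of members from the DMSO mean was −0.1 in it. Leaving it out raises the DMSO level of members low in it, so these shares are not a separate test either.

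**Figure D5:**
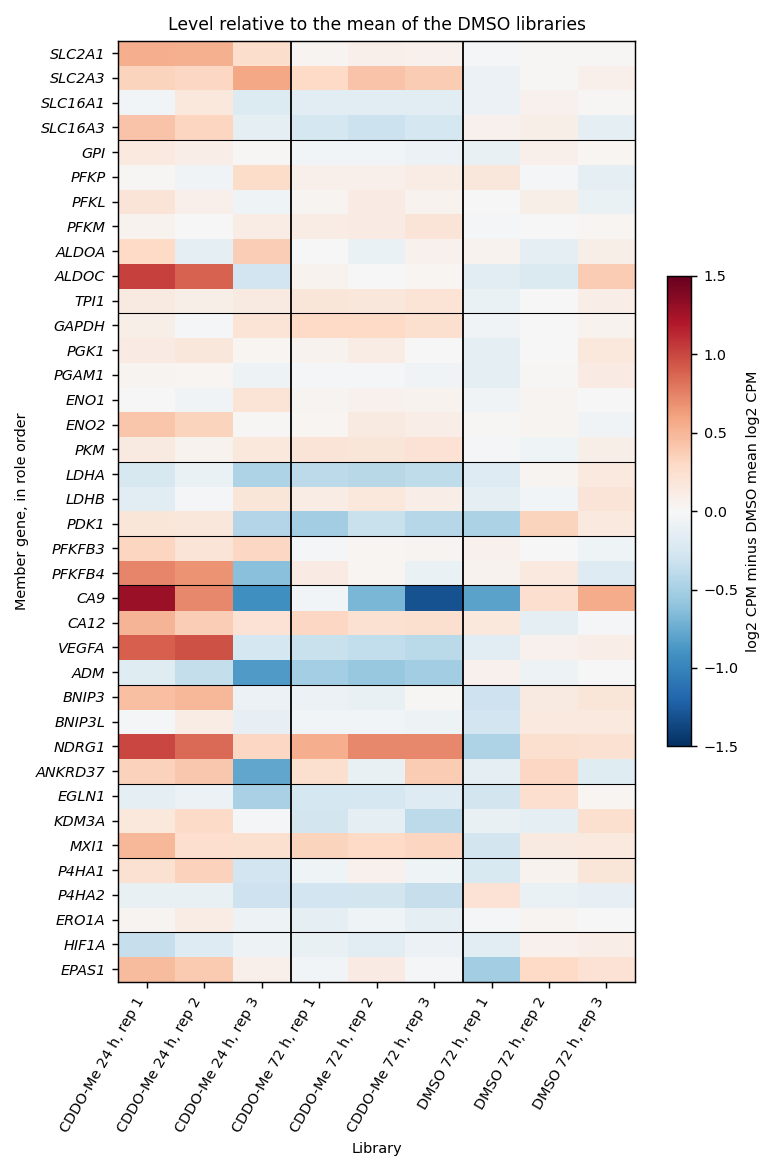
Log2 CPM of the 38 tested members in each library minus the mean log2 CPM of the DMSO libraries, in role order, with colours capped at 1.5 either way. CDDO-Me 24 h replicates 1 and 2 are red for VEGFA, ALDOC, PFKFB4 and NDRG1, replicate 3 is blue for CA9, ADM, PFKFB4 and ANKRD37, and the 72 h libraries resemble each other in most rows, with CA9 an exception (1.41, 0.902 and 0.587 CPM).

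Other genes of the same pathways, which are not members, were tested in the same fit. Of 27 genes of glycolysis and pyruvate handling, 0 passed at 24 h by edgeR, with 1 at an unadjusted p under 0.05, and 2 rose at 72 h (7.41%, against 6.02% of all genes called). These were MPC2, a subunit of the mitochondrial pyruvate carrier, at 55.0 ± 0.872 CPM against 42.7 ± 1.94 CPM in DMSO (0.37 ± 0.08, adjusted p 0.0127), and GBE1, the glycogen branching enzyme, at 91.4 ± 2.98 CPM against 67.6 ± 2.03 CPM (0.44 ± 0.11, 0.029). Between 72 h and 24 h 1 of the 27 passed (3.7%, against 1.02% of all genes), which was MPC2, higher at 72 h (0.36 ± 0.08, adjusted p 0.0426). Of 37 tested genes of the HIF pathway, 1 rose and 1 fell at 24 h (5.41%, against 2.15% of all genes), and 1 rose and 3 fell at 72 h (10.8%, against 6.02%). Between 72 h and 24 h 1 was higher and 3 were lower (10.8%, against 1.02%). TFRC, the transferrin receptor, rose at both times (0.36 ± 0.08 and 0.38 ± 0.08, adjusted p 0.0374 and 0.0143). CITED2, which competes with HIF for its coactivator, fell at 24 h to 262.4 ± 18.2 CPM, against 474.1 ± 92.9 CPM in DMSO (−0.85 ± 0.12, adjusted p 0.00134), and was at 513.7 ± 16.9 CPM at 72 h, higher than at 24 h (0.97 ± 0.12, adjusted p 0.00153). At 72 h ARNT2, a dimer partner of HIF alpha (−0.86 ± 0.09, adjusted p 5.91e-05), the repressor gene BHLHE40 (−1.0 ± 0.16, 0.00145) and the glycoprotein hormone gene STC1 (−0.66 ± 0.19, 0.0494) fell. All 3 were also lower at 72 h than at 24 h (−0.55 ± 0.09, −1.20 ± 0.16 and −0.97 ± 0.18). ARNT, the usual partner, averaged 70.4 ± 4.01 CPM at 24 h and 77.8 ± 2.96 CPM at 72 h, against 64.6 ± 2.28 CPM in DMSO, and missed the threshold at 72 h (0.27 ± 0.08, adjusted p 0.0541). VHL, which recognizes hydroxylated HIF alpha, and HIF1AN, the asparagine hydroxylase, had log2 fold changes from −0.09 to 0.14 at both times.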

How the data were processed

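Polyadenylated RNA of 9 AC16 samples was sequenced from unstranded TruSeq v2 libraries, per the labels' protocols. The authors deposited whole-number read counts per Ensembl gene with the summed exon length, and the tools named, per the submitters' processing notes, are featureCounts, Subread, STAR and SAMtools, on GRCh38 (hg38), with no versions. The annotation release, strand setting and handling of multiply mapped reads were not given in the sources used here. Some titles shorten the compound to CDDO, and the treatment label, CDDO-Me, was followed.

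Library names tied the 9 columns to samples, and 57717 of 58299 gene IDs had a symbol. No pair of replicate columns agreed within counting error (lowest ratio of chi-square to its degrees of freedom 2.06). Whether replicates came from separate cultures is not labelled: the p-values reflect the spread of these samples only, and that spread may be technical. Counts were tested with edgeR 4.0.16 (R 4.3.3; quasi-likelihood, robust, TMM, filterByExpr) in 1 fit of 3 group means over 9 libraries, leaving 14965 genes. Adjustment followed Benjamini and Hochberg across these genes, and adjusted p under 0.05 was called. The SE was taken as the absolute log2 fold change divided by the root of F. CPM use the scaled library size, and TPM were computed from counts and exon length. The limit that a count of 0 allows was 3 counts, 0.11 to 0.175 CPM per library, and covers counting error only.

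The rule for named genes gave full values to members that passed, and to HIF1A, EPAS1, SLC2A1, LDHA, GAPDH, VEGFA and CA9, plus up to 4 called genes per direction from each list of other pathway genes, and NQO1 and HMOX1 as a check of treatment. Values of further members, and of ARNT, VHL and HIF1AN, were added after they were seen. The members and lists were chosen with earlier results of these data known. Alternatives were other size factors, no filter, DESeq2 1.42.0, limma 3.58.1 (voom), a replicate block, only the compared groups, and libraries left out. Promoters are RefSeq windows on GRCh38.p14. Shared replicate numbers were not used as a pairing in the main fit.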

Additional observations from a re-analysis of the deposited data

Results flagged for a closer look

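SLC2A1 was flagged because its difference from DMSO of 72 h was not the same at the 2 times of CDDO-Me. The difference at 72 h minus that at 24 h was −0.39 on the log2 scale (edgeR, adjusted p 0.0306). This is the contrast of 72 h against 24 h, since both differences use the same DMSO libraries. The call ended when any 1 of 6 libraries was left out (adjusted p up to 0.196) and with only the groups compared. All 3 libraries of 72 h were below all 3 of 24 h. No vehicle library of 24 h enters this contrast, so a change in the effect of CDDO-Me and time in culture cannot be told apart.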

How the results depend on the processing

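Over the 38 tested members and 3 comparisons, no call changed direction under any alternative run. DESeq2 size factors changed none of 114 member results, the replicate block 2, library totals 2 and limma-voom 1, while leaving out both libraries that stood apart added 51 calls. The same-number correlations of deviations from the group means ran from 0.00128 to 0.175, and those of different numbers from −0.271 to 0.112. With 3 libraries per group these values cannot decide whether the numbers pair the samples. The replicate block gave 2 members lower between 72 h and 24 h, adding SLC16A3, and added P4HA2 at 72 h against DMSO. Over all genes it called 358 at 24 h against DMSO, 963 at 72 h against DMSO and 219 between 72 h and 24 h. Counts below run higher, lower and all genes called. At 24 h against DMSO they were 2, 0 and 321; without 1 library they ranged over 1 to 11, 0 to 2 and 134 to 1657. No filter gave 4, 1 and 662, DESeq2 4, 1 and 526, sample weights 11, 2 and 1640, only the compared groups 0, 0 and 100, and both libraries left out 11, 4 and 3464. At 72 h against DMSO they were 1, 2 and 901; without 1 library 0 to 5, 0 to 5 and 401 to 1972. Library totals and limma-voom gave 2 higher, no filter 3 and 5, DESeq2 3 higher, sample weights 6, 7 and 2604, only the compared groups 3, 5 and 1776, and both left out 6, 14 and 2724. At 72 h against 24 h they were 0, 1 and 152; without 1 library 0 to 1, 0 to 13 and 32 to 1843. No filter gave 3 lower and 507 in all, DESeq2 3 and 388, sample weights 2, 17 and 2938, only the compared groups 0 lower, and both left out 2, 20 and 3471. The highest counts without 1 library were those without CDDO-Me 24 h replicate 3. The cause of these shifts was not tested. Depth limits CA9 and EGLN3.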
